A study of Mus musculus with 8 samples.

Results

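The genes described here encode the machinery that copies the genome. They are 44 genes of 55385 in the table, chosen by name, with earlier results of these data known, and by a rule that uses no measured value: the subunits of the origin recognition complex, the licensing factors, the MCM helicase and the proteins that activate it, the replicative polymerases with primase, the sliding clamp and its loader, the single-strand binding and lagging-strand maturation proteins, and the enzymes that supply deoxynucleotides. All 44 members had enough counts to be tested. Their RNA was measured by RNA-Seq in R1 cells, a wild-type (WT) line of mouse embryonic stem cells (mESCs) kept in N2B27 medium with 2i + Lif. The cells were infected for 2 days with lentivirus and selected with puromycin for 3 days. The virus carried shRNA1 or shRNA2, hairpins against *Eftud2*, which encodes a GTPase of the spliceosome (3 libraries each), or nt-shRNA, a hairpin without a target (2 libraries), so that infection and selection were common to all groups. Only cells that took up a hairpin survive the selection, and each construct is a single hairpin sequence.

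DNA replication begins at origins, where the origin recognition complex, with CDC6 and CDT1, loads the ring of MCM2 to MCM7 onto DNA in G1. In S phase CDC45 and the GINS complex join the ring to form the active helicase, polymerase alpha with primase lays down primers, and polymerases epsilon and delta, held by the PCNA clamp, extend them. Embryonic stem cells divide rapidly and spend a large part of their cycle in S phase, so these genes are well transcribed in them, and many are known targets of E2F transcription factors.

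Library totals ran from 19569525 to 29871048 counts, and levels are given as CPM, the gene's counts adjusted for library size by the TMM method. The targeted transcript was checked first. *Eftud2* was at 262 and 256 CPM with nt-shRNA, 232, 229 and 225 CPM with shRNA1, and 198, 202 and 235 CPM with shRNA2. Every library with either hairpin lay below both controls, and edgeR's quasi-likelihood test gave -0.18 under shRNA1 (adjusted p = 0.0514) and -0.29 under shRNA2 (adjusted p = 0.00122) on the log2 scale. The transcript thus remained at 0.883 and 0.817 of the control level, a small decrease for the targeted gene, which makes it a weak check of the labels. The shRNA1 decrease passed the threshold in 5 of 15 other settings of the analysis and the shRNA2 decrease in all 15. All 8 pluripotency markers were expressed, and their summed level was 4686 to 4716 CPM with nt-shRNA, 5267 to 5473 CPM with shRNA1 and 6212 to 6308 CPM with shRNA2. They did not move as 1, since 4 were higher with shRNA1 and 6 with shRNA2 (*Nanog* and *Klf4* among them), whereas *Pou5f1* was lower with both (-0.35, adjusted p = 0.000372, and -0.29, adjusted p = 0.000862, edgeR). Of 14 markers of fibroblast, endoderm, mesoderm and neural cells, 12 passed the filter. Their sum was 111.7 to 114.9, 93.4 to 105.1 and 72.0 to 75.5 CPM in the same order, and *Postn* and *Foxa2* had at most 5 counts in any library. *Nes* made up much of this sum, at a mean of 58.9, 43.0 and 22.7 CPM, while *Col1a2* was higher with both hairpins (1.27, adjusted p = 0.0103, and 1.66, adjusted p = 0.000429, edgeR) from 0.43 CPM, and *Mixl1* was higher with shRNA2 (0.81, adjusted p = 0.0498). Lower were *T* with shRNA1 (-0.81, adjusted p = 0.0483) and *Gata6* with shRNA2 (-0.75, adjusted p = 0.000815, edgeR). The part of these shifts in the results below was not tested. In bulk RNA, fewer cells of a type and less RNA per cell cannot be told apart.

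In control cells the 6 MCM genes formed the most abundant group. Levels between genes are given per length, as FPKM from the CPM and the exon length of each gene in the table. The MCM genes lay between 74.1 FPKM (*Mcm4*) and 118.9 FPKM (*Mcm3*), against a median of 25.3 FPKM over the 44 members. *Pcna*, at 104.4 FPKM, and *Rrm2*, at 97.4 FPKM, were in the same range. Lower levels were found for *Gins3* (7.92 FPKM), *Orc4* (8.53 FPKM) and *Prim2* (9.67 FPKM). A long exon model lowers this measure. *Orc4* and *Prim2* have 7458 and 5938 counted exon bases, against 4066 and 1975 in a coding transcript of each, so their low rank is uncertain. *Fen1*, which encodes the flap endonuclease, had 2.71 FPKM and *Tyms*, thymidylate synthase, 3.35 FPKM, but both values have limits in the counting. Other genes overlap 84.2% of the exon bases of *Fen1*, and fragments that fall on both genes were left out. The value of *Tyms* is an average over a long exon model. Per length, *Mcm5* was the highest member with shRNA1, at 108.6 FPKM, and with shRNA2, at 147.9 FPKM. The lowest of the 6 MCM genes per length was *Mcm2* with shRNA1, at 74.6 FPKM, and *Mcm6*, at 74.0 FPKM, with shRNA2. In counts, *Mcm2* was above the other MCM genes with shRNA1 (519 CPM). Its exon model has 6956 bases against 3371 in a coding transcript, so its rank per length depends on that model.

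**Figure D1:**
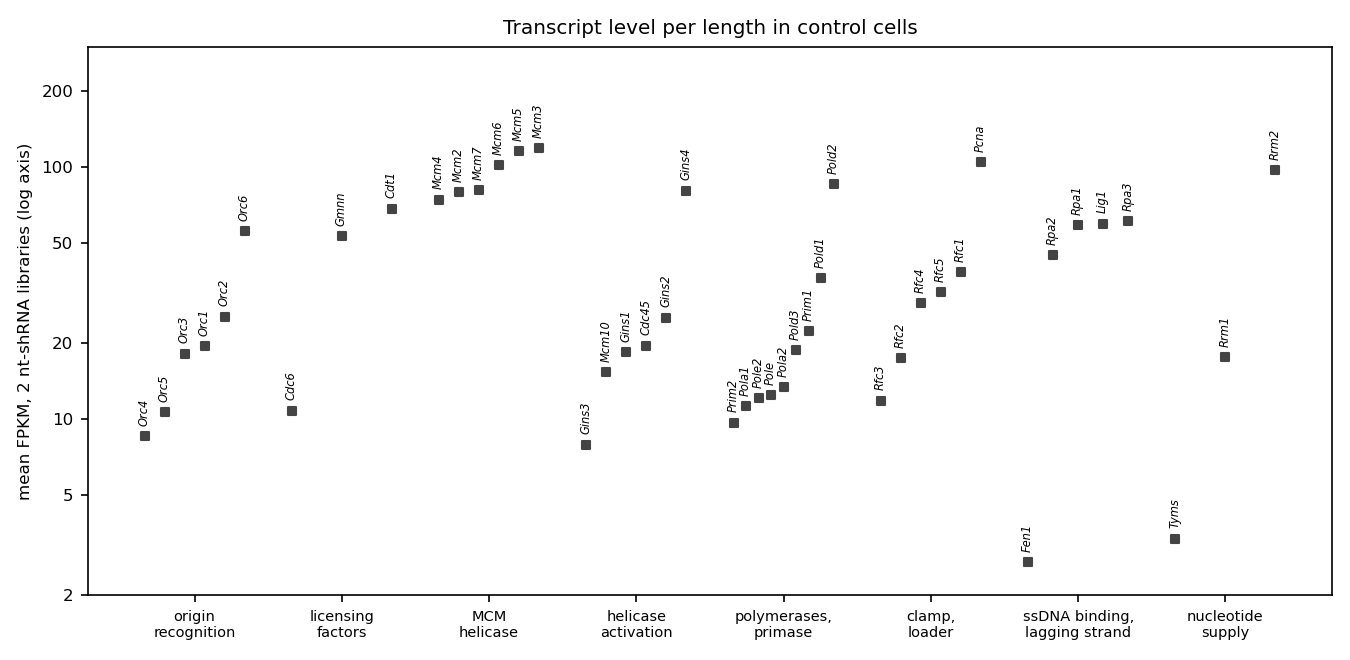
Mean level of each of the 44 genes in the 2 nt-shRNA libraries, in FPKM on a log axis, grouped by role along the horizontal axis. The MCM genes sit between 74.1 and 118.9 FPKM, and *Fen1* and *Tyms* are the lowest points at 2.71 and 3.35 FPKM.

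Some promoters of these genes hold a sequence feature that played no part in choosing them. Promoter sequences from RefSeq (GRCm38.p6, 250 bases before to 50 bases after the start) were matched for 36 members, not for *Gmnn*, *Mcm4*, *Gins1*, *Gins2*, *Gins4*, *Prim2*, *Pole* and *Rfc2*. An E2F motif, searched on both strands as the letters TTTCCCGC, TTTCGCGC, TTTGCCGC or TTTGGCGC, was present in 15 of the 36 genes (41.7%), against 2.6% of the 27025 genes with a promoter in the table. A CCAAT box (CCAAT, both strands) was present in 63.9% of the members and 41.1% of all genes, and the cell cycle homology region (TTTGAA, both strands) in 13.9% and 20.2%. A match is a description of the letters and not a site of binding. The windows below are shown for the 8 members that hold an E2F match and passed the test in at least 1 comparison. They are written along the gene's strand with 1 match in capitals, and in *Mcm5*, *Mcm6* and *Rfc3* another match overlaps or lies beside the first.
Orc1 (chr4:108579416-108579445, plus strand): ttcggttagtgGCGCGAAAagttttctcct
Cdt1 (chr8:122568035-122568064, plus strand): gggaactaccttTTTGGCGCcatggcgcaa
Mcm5 (chr8:75109345-75109374, plus strand): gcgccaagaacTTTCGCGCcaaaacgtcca
Mcm6 (chr1:128359797-128359826, minus strand): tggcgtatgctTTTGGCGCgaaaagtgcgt
Pola1 (chrX:93632275-93632304, minus strand): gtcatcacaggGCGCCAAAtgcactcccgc
Pold1 (chr7:44548766-44548795, minus strand): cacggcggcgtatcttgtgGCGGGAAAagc
Rfc3 (chr5:151651200-151651229, minus strand): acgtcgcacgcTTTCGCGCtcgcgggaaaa
Lig1 (chr7:13278841-13278870, plus strand): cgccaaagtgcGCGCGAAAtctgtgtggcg
Members that rose and members that fell both held the motif. With shRNA2, 4 of the 7 higher members with a promoter, 2 of the 6 lower members and 9 of the 23 members without a call held an E2F match. *Mcm5* and *Mcm6*, shown above, both hold it and moved in opposite directions with shRNA2.

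Most called replication genes were lower with shRNA1 (though 8 were higher and 5 lower when scaled by library size alone), and those called with shRNA2 were divided between both directions (14 higher and 6 lower with that scaling). Scaling by library size alone also moved all genes, of which 23.5% were then higher and 9.82% lower with shRNA1, and 33.5% and 23.4% with shRNA2. With shRNA1, *Orc2* was higher and *Cdt1*, *Mcm6*, *Gins2*, *Pola2*, *Pold1*, *Pold2* and *Lig1* were lower, 8 of 44 members in all (2.3% higher, 15.9% lower and 18.2% together). Of all 17445 genes tested, 13.8% were called higher, 17.1% lower and 30.9% in either direction (edgeR's quasi-likelihood test, adjusted p-value under 0.05). With shRNA2, 9 members rose (*Orc1*, *Orc2*, *Mcm4*, *Mcm5*, *Gins1*, *Pola1*, *Rfc3*, *Fen1* and *Tyms*) and 9 fell (*Mcm6*, *Cdc45*, *Gins2*, *Gins4*, *Pola2*, *Prim1*, *Prim2*, *Pold1* and *Pold2*), 20.5% each way and 40.9% in all. The same test called 27.2% of all genes higher, 28.7% lower and 55.9% in either direction. In both comparisons the share of members called was thus below the share of all genes.

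The changes were small. The median log2 fold change of the members was -0.08 with shRNA1 and -0.02 with shRNA2, and -0.01 and 0.00 over all genes tested. Regardless of direction, the median size of the change was 0.0927 with shRNA1 and 0.128 with shRNA2 on the log2 scale, against 0.224 and 0.370 over all genes. Below 0 were 30 of the 44 members with shRNA1 and 24 with shRNA2. *Tyms* with shRNA2 was the only member past 2-fold in either comparison, whereas 5.94% of all genes were past it with shRNA1 and 14.81% with shRNA2. For the members without a call, the 95% intervals of the log2 fold change bound what these libraries allow, and they reached from -0.38 (*Pole2*) to 0.55 (*Tyms*) over the 36 members with shRNA1, and from -0.33 (*Rpa3*) to 0.34 (*Gins3*) over the 26 with shRNA2. The summed level of the 44 members was 6865 and 7043 CPM with nt-shRNA, between 6347 and 6554 CPM with shRNA1 and between 6562 and 6914 CPM with shRNA2. Every shRNA1 library lay below both controls in this sum, while the shRNA2 libraries overlapped them.

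Both comparisons use the same 2 control libraries. In the values per library, 6 members lay wholly above and 20 wholly below the controls with shRNA1, where 26.6% and 30.2% of all genes did, 56.8% together. With shRNA2 these numbers were 12 and 17 members, against 35.4% and 36.0% of all genes, 71.4% together. No call was made for 24 members in any of the 3 comparisons, among them *Mcm2*, *Mcm3*, *Mcm7*, *Pcna*, *Rrm1*, *Rrm2* and all 3 subunits of the single-strand binding protein RPA. Of all genes, 30.9% were called with shRNA1, 55.9% with shRNA2 and 35.6% between the hairpins. The share of all genes without a call in all 3 was not counted, so the 24 members are a description only.

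**Figure D2:**
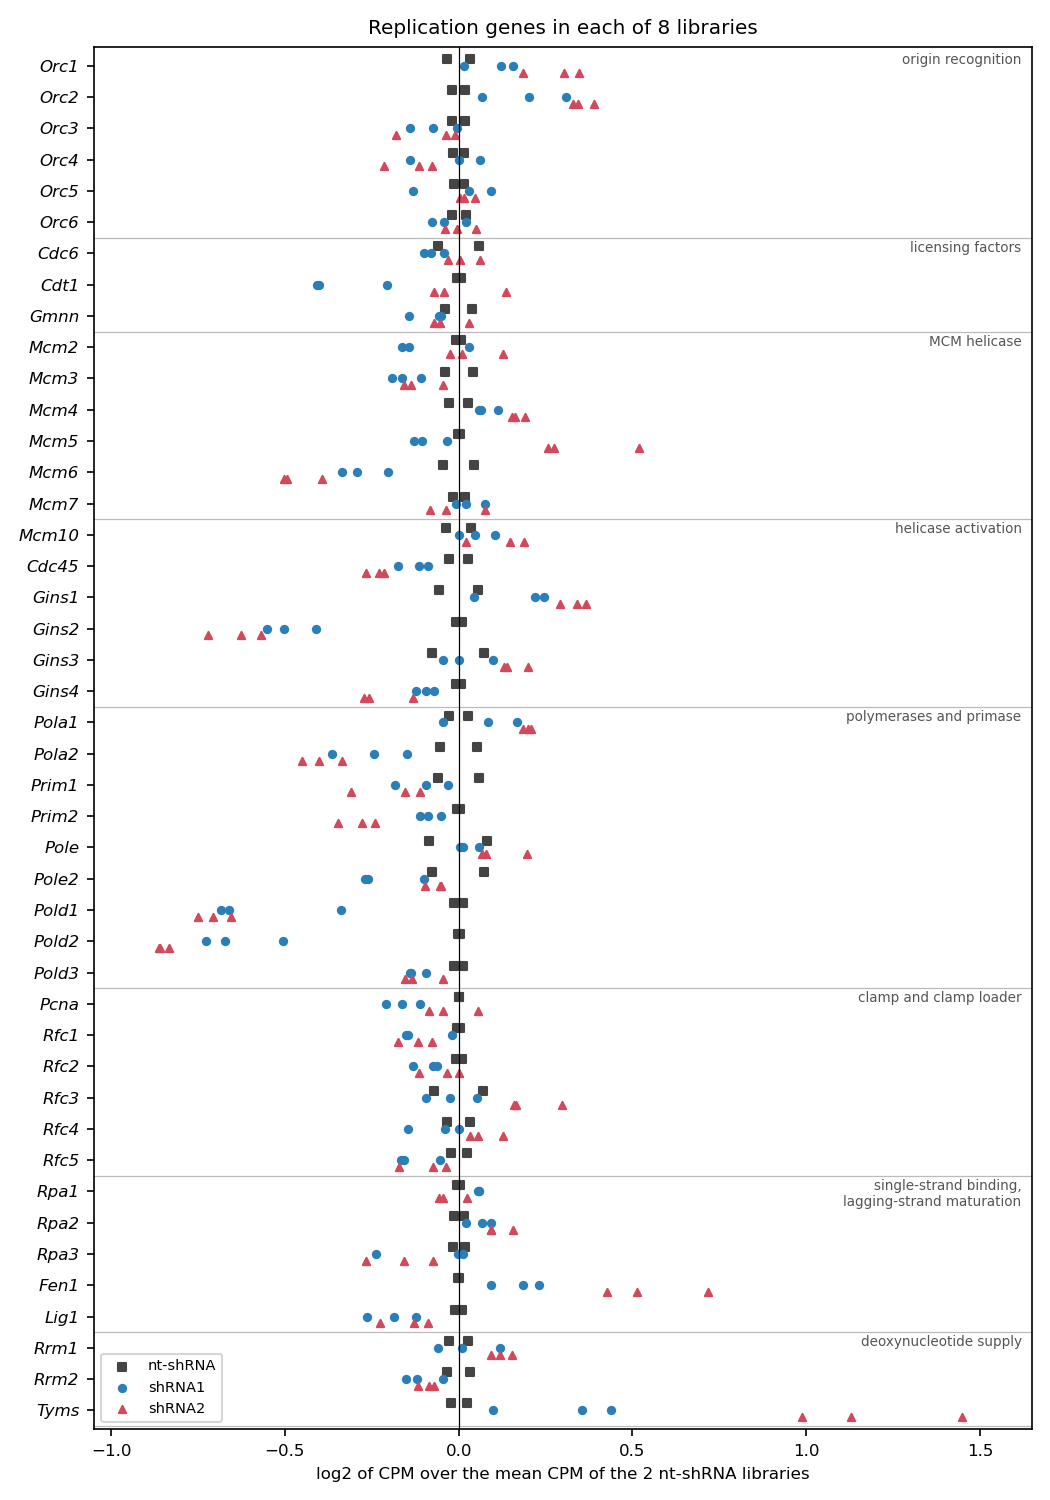
Each of the 44 genes in each of the 8 libraries, as log2 of its CPM over the mean CPM of the 2 nt-shRNA libraries (squares), with shRNA1 as circles and shRNA2 as triangles, grouped by role. *Pold1*, *Pold2*, *Gins2* and *Mcm6* lie to the left of the controls with both hairpins, *Tyms* stands furthest to the right with shRNA2.

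Of the 6 subunits of the complex that marks origins, *Orc1* and *Orc2* rose and the other 4 had no call. *Orc2* (chr1:58462771-58505109, GRCm38) stood at 96.9 and 99.4 CPM with nt-shRNA, 122, 113 and 103 CPM with shRNA1, and 129, 123 and 125 CPM with shRNA2. All 6 libraries with a hairpin against *Eftud2* lay above both controls, and the shRNA1 and shRNA2 libraries did not overlap. The log2 fold change was 0.19 under shRNA1 (standard error of the fold change, SE, 0.0683, adjusted p = 0.0367, edgeR) and 0.35 under shRNA2 (SE 0.0684, adjusted p = 0.000218, edgeR). The call with shRNA1 was lost without shRNA1 replicate 1 (0.13, adjusted p = 0.163, edgeR) or replicate 2 (adjusted p = 0.0939), and without either control library (adjusted p = 0.209 and 0.117). *Nif3l1*, on the other strand, covers 29.8% of the exon bases of *Orc2* and had log2 fold changes of 0.19 and 0.39. Fragments on both genes were left out, so the *Orc2* value comes from the other exon bases. *Orc1*, an ATP-binding subunit that is regulated over the cell cycle (chr4:108579423-108614833, GRCm38), had 66.2 and 69.2 CPM with nt-shRNA, 73.6, 75.4 and 68.4 CPM with shRNA1, and 76.9, 83.5 and 86.0 CPM with shRNA2. Its shRNA2 libraries were all above the controls, by a log2 fold change of 0.28 (SE 0.0697, adjusted p = 0.00221, edgeR), while 1 shRNA1 library fell among the controls (0.10, adjusted p = 0.305). *Orc4* had 64.3 and 63.0 CPM with nt-shRNA, 66.4, 63.7 and 57.7 CPM with shRNA1, and 60.3, 54.8 and 58.8 CPM with shRNA2. Its shRNA2 libraries lay below the controls without a call (-0.13, adjusted p = 0.127). *Orc3*, *Orc5* and *Orc6* had log2 fold changes between -0.07 and 0.02 with shRNA2, and the groups overlapped.

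Of the licensing factors, *Cdt1*, which brings the MCM ring to origins and is destroyed in S phase, fell with shRNA1 and not with shRNA2. It (chr8:122568015-122573554, GRCm38) stood at 216 and 214 CPM with nt-shRNA, 163, 162 and 186 CPM with shRNA1, and 209, 236 and 205 CPM with shRNA2. The shRNA1 libraries were below every other library, and the shRNA2 libraries lay on both sides of the controls. Its log2 fold change was -0.33 under shRNA1 (SE 0.0723, adjusted p = 0.00164, edgeR) and 0.01 under shRNA2 (95% interval -0.14 to 0.16, adjusted p = 0.92). The difference between the hairpins was 0.34 (SE 0.0655, adjusted p = 0.000524, edgeR). *Cdc6*, the loader ATPase, had 54.0 and 58.6 CPM with nt-shRNA, 53.3, 52.6 and 54.7 CPM with shRNA1, and 55.1, 58.7 and 56.5 CPM with shRNA2. *Gmnn*, which encodes geminin, the inhibitor of CDT1, was at 75.8 and 79.8 CPM with nt-shRNA, 75.1, 70.5 and 74.8 CPM with shRNA1, and 74.0, 75.0 and 79.4 CPM with shRNA2. Neither gene had a call in any comparison, and their log2 fold changes over nt-shRNA lay between -0.08 and 0.01. A pseudogene copy, *Gm9430*, matches 59.5% of the *Cdc6* transcript at 95% identity or more, so counts of *Cdc6* are uncertain.

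The 6 subunits of the MCM ring, which is built from 1 copy of each, diverged with shRNA2. *Mcm5* and *Mcm4* rose, *Mcm6* fell, and *Mcm2*, *Mcm3* and *Mcm7* had no call. *Mcm6* (chr1:128331590-128359664, GRCm38) stood at 461 and 490.2 CPM with nt-shRNA, 413, 377 and 388 CPM with shRNA1, and 336, 338 and 362 CPM with shRNA2. All shRNA1 libraries lay below the controls and all shRNA2 libraries below those of shRNA1. The log2 fold change was -0.28 under shRNA1 (SE 0.0623, adjusted p = 0.00226, edgeR) and -0.46 under shRNA2 (SE 0.0622, adjusted p = 4.22e-06, edgeR). *Mcm5* (chr8:75109569-75128439, GRCm38) had 463 and 461 CPM with nt-shRNA, 422, 429 and 451 CPM with shRNA1, and 558, 662 and 551 CPM with shRNA2. Its shRNA2 libraries stood above all others, replicate 2 highest, and its shRNA1 libraries just below the controls. The log2 fold change was 0.36 under shRNA2 (SE 0.0729, adjusted p = 0.000399, edgeR) and -0.09 under shRNA1 (95% interval -0.24 to 0.06, adjusted p = 0.369). *Mcm4* was at 261 and 271 CPM with nt-shRNA, 288, 277 and 278 CPM with shRNA1, and 296, 304 and 298 CPM with shRNA2. The groups did not overlap, but the changes were small, 0.08 and 0.17 on the log2 scale, and the shRNA2 call (adjusted p = 0.0168, edgeR) was lost without either control library (adjusted p = 0.153 and 0.052) and without a filter on low counts (adjusted p = 0.0753). *Mcm3* had log2 fold changes of -0.15 (adjusted p = 0.0597) and -0.11 (adjusted p = 0.121), with all libraries of both hairpins below the controls. *Mcm2* and *Mcm7* overlapped the controls with both hairpins, between -0.09 and 0.04 on the log2 scale. A copy of *Mcm7*, *Gm5487*, matches 90.2% of the coding transcript examined. That transcript has 795 bases and the counted exons of *Mcm7* 4426, so the share does not give the extent.

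Of the genes that activate the helicase, *Gins2* fell with both hairpins, whereas *Gins1*, which encodes another of the 4 subunits of the same complex, rose with shRNA2. *Gins2* (chr8:120578633-120589304, GRCm38) had 104 and 103 CPM with nt-shRNA, 70.5, 72.9 and 77.8 CPM with shRNA1, and 66.9, 62.7 and 69.7 CPM with shRNA2. No library of either hairpin came near the controls, and the hairpins themselves did not overlap. The log2 fold change was -0.49 under shRNA1 (SE 0.0662, adjusted p = 2.24e-05, edgeR) and -0.64 under shRNA2 (SE 0.0665, adjusted p = 1.78e-07, edgeR). *Gse1*, on the other strand, overlaps 67.3% of the exon bases of *Gins2* and had log2 fold changes of 0.20 (adjusted p = 0.119) and 0.65 (adjusted p = 8.59e-06, edgeR), the opposite direction. Fragments on both genes were not counted, so the *Gins2* value comes from the rest of the gene. *Gins1* was at 28.9 and 26.8 CPM with nt-shRNA, 33.0, 32.4 and 28.7 CPM with shRNA1, and 35.2, 35.9 and 34.1 CPM with shRNA2. Its shRNA2 libraries were above all others, at a log2 fold change of 0.33 (SE 0.0836, adjusted p = 0.0023, edgeR), and the shRNA1 libraries overlapped the controls (0.17, adjusted p = 0.135). *Cdc45*, the partner of the GINS complex in the active helicase, stood at 67.2 and 69.7 CPM with nt-shRNA, 64.4, 60.7 and 63.3 CPM with shRNA1, and 56.9, 58.4 and 59.0 CPM with shRNA2. It lay below the controls with both hairpins and fell with shRNA2 (-0.24, SE 0.0647, adjusted p = 0.00441, edgeR), though not without nt-shRNA replicate 2 (-0.21, adjusted p = 0.0562) or when scaled by library size alone (-0.15, adjusted p = 0.0617). *Gins4* fell with shRNA2 (-0.22, adjusted p = 0.00559, edgeR), a call also lost with library size alone (-0.13, adjusted p = 0.0857). *Gins3* and *Mcm10*, which encodes a factor needed to start unwinding, had log2 fold changes of 0.16 and 0.12 with shRNA2 and no call.

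The largest decreases of the 44 genes were in polymerase delta, which extends the lagging strand. *Pold2*, its second subunit (chr11:5872180-5878292, GRCm38), stood at 162 and 162 CPM with nt-shRNA, 102, 97.9 and 114 CPM with shRNA1, and 90.8, 89.2 and 89.2 CPM with shRNA2. *Pold1*, the catalytic subunit (chr7:44532746-44548849, GRCm38), had 175 and 178 CPM with nt-shRNA, 109.6, 111 and 139 CPM with shRNA1, and 105, 108 and 112 CPM with shRNA2. Both genes were below the controls in all 6 hairpin libraries, and for *Pold2* the shRNA2 libraries were also below all of shRNA1. *Pold2* had a log2 fold change of -0.63 under shRNA1 (SE 0.0651, adjusted p = 1.06e-06, edgeR) and -0.85 under shRNA2 (SE 0.0654, adjusted p = 3.77e-09, edgeR), or 0.646 and 0.554 of the control level. *Pold1* had -0.55 (SE 0.0804, adjusted p = 4.55e-05, edgeR) and -0.70 (SE 0.0807, adjusted p = 5.81e-07, edgeR). Replicate 3 of shRNA1 was the highest of its group for both genes. The accessory subunit *Pold3* had log2 fold changes of -0.12 (95% interval -0.25 to 0.01) and -0.11 (-0.24 to 0.02) and no call. No annotated gene overlaps an exon of *Pold1*, *Pold2* or *Pold3*.

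Polymerase alpha, which makes the primers, showed opposite directions in its subunits. *Pola2*, the regulatory subunit, stood at 107 and 115 CPM with nt-shRNA, 93.9, 86.3 and 100.2 CPM with shRNA1, and 81.3, 84.2 and 88.0 CPM with shRNA2. *Pola1*, the catalytic subunit on the X chromosome, had 97.0 and 101 CPM with nt-shRNA, 111, 105 and 95.7 CPM with shRNA1, and 114, 112 and 114 CPM with shRNA2. *Pola2* was below the controls in all 6 hairpin libraries, and *Pola1* was above them in every shRNA2 library and overlapped them with shRNA1. *Pola2* fell with shRNA1 (-0.25, SE 0.0693, adjusted p = 0.0106, edgeR) and with shRNA2 (-0.39, SE 0.0695, adjusted p = 8.73e-05, edgeR). The call with shRNA1 was lost without shRNA1 replicate 2 (adjusted p = 0.0739) or nt-shRNA replicate 2 (adjusted p = 0.145), and with library size alone (-0.13, adjusted p = 0.149). *Pola1* rose with shRNA2 by 0.20 (SE 0.0662, adjusted p = 0.0161, edgeR), a call lost without either control library (adjusted p = 0.136 and 0.0537). The primase subunits *Prim1* (-0.19, adjusted p = 0.0314) and *Prim2* (-0.29, adjusted p = 0.00127, edgeR) fell with shRNA2, but the *Prim1* call was lost in 5 of 15 other settings, those without shRNA2 replicate 1, shRNA2 replicate 2 or nt-shRNA replicate 2, with library size alone and with at least 10 counts in every library (adjusted p from 0.0532 to 0.265). *Pole* and *Pole2*, of the leading-strand polymerase epsilon, had log2 fold changes of 0.12 and -0.07 with shRNA2 and no call in any comparison.

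**Figure D3:**
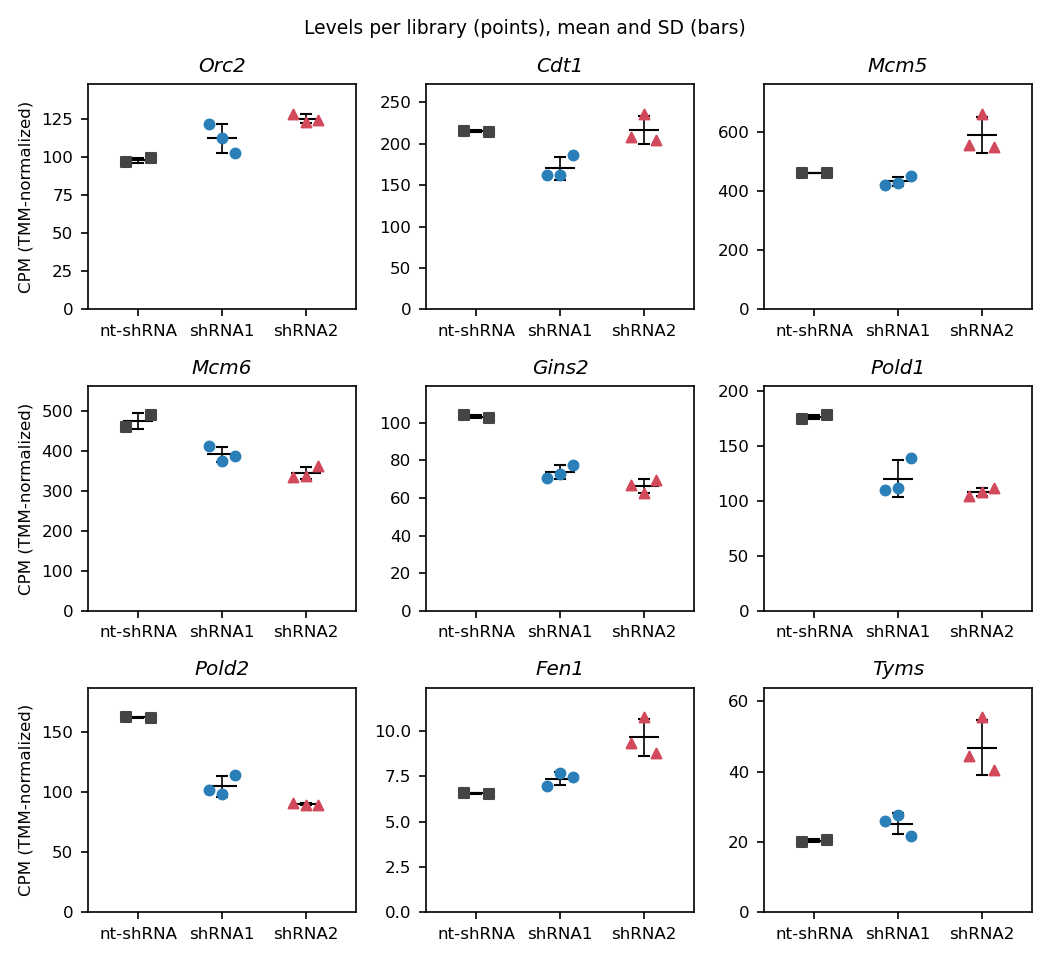
CPM (TMM-normalized, vertical axes from 0) of 9 replication genes in the 2 nt-shRNA, 3 shRNA1 and 3 shRNA2 libraries, with points for libraries and bars for the mean and SD. *Mcm6*, *Gins2*, *Pold1* and *Pold2* are below the controls with both hairpins, *Cdt1* only with shRNA1, and *Mcm5*, *Fen1* and *Tyms* are highest with shRNA2.

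Of the 6 genes of the clamp and its loader, *Rfc3*, a small subunit of the loader that opens the clamp, was the only one with a call. *Rfc3* had 40.5 and 44.7 CPM with nt-shRNA, 44.2, 41.9 and 39.9 CPM with shRNA1, and 47.8, 52.4 and 47.5 CPM with shRNA2. The shRNA2 libraries were above the other groups, at a log2 fold change of 0.21 (SE 0.0773, adjusted p = 0.0281, edgeR), which was lost without shRNA2 replicate 2 (0.17, adjusted p = 0.0853) or nt-shRNA replicate 1 (0.14, adjusted p = 0.285) and without a filter (0.18, adjusted p = 0.0894). *Pcna*, the clamp itself (chr2:132249162-132253314, GRCm38), had 250.4 and 250.5 CPM with nt-shRNA, 217, 224 and 232 CPM with shRNA1, and 236, 260.2 and 242 CPM with shRNA2. With shRNA1 it was below both controls in every library and lay at the threshold (-0.16, SE 0.0605, adjusted p = 0.0504, edgeR), which it passed in 3 of 15 other settings (adjusted p = 0.0248 to 0.0432), and with shRNA2 it overlapped them (-0.02, 95% interval -0.15 to 0.10). A pseudogene copy, *Pcna-ps2*, matches 51.4% of its transcript. *Rfc1*, the large subunit, stood at 232 and 229.9 CPM with nt-shRNA, 228, 209 and 208 CPM with shRNA1, and 204, 213 and 219 CPM with shRNA2. *Rfc5* was at 147 and 152 CPM with nt-shRNA, 144, 134 and 133 CPM with shRNA1, and 132, 142 and 146 CPM with shRNA2. Both lay below the controls with either hairpin, by -0.13 to -0.09 on the log2 scale, and had no call. Copies match 41.3% of the *Rfc5* transcript. *Rfc2* and *Rfc4* stayed between -0.09 and 0.07 with no call.

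On the lagging strand, *Fen1*, the endonuclease that trims flaps from Okazaki fragments, rose with shRNA2, and *Lig1*, the ligase that seals them, fell with shRNA1. *Fen1* (chr19:10199132-10204169, GRCm38) had 6.56 and 6.55 CPM with nt-shRNA, 6.99, 7.70 and 7.45 CPM with shRNA1, and 9.35, 10.8 and 8.81 CPM with shRNA2. The lowest shRNA2 library was above the highest of any other group, and the log2 fold change was 0.56 under shRNA2 (SE 0.132, adjusted p = 0.00138, edgeR) and 0.17 under shRNA1 (adjusted p = 0.353). These levels rest on the small part of its exons outside the overlap given above. The antisense gene *Gm10143*, which covers 78.8% of the exon bases, stood at 0.80 CPM in the controls and had a log2 fold change of 1.50 under shRNA2 (adjusted p = 9.47e-05, edgeR). *Lig1* (chr7:13277283-13311433, GRCm38) stood at 253 and 256 CPM with nt-shRNA, 224, 212 and 234 CPM with shRNA1, and 218, 239.5 and 233 CPM with shRNA2. All 6 hairpin libraries were below the controls. It fell with shRNA1 (-0.19, SE 0.0622, adjusted p = 0.0265, edgeR) and just missed the threshold with shRNA2 (-0.15, adjusted p = 0.0521), where it passed in 5 of 15 other settings. The shRNA1 call was lost without shRNA1 replicate 1 or 2, without either control library (adjusted p between 0.0596 and 0.14), with at least 10 counts in every library (adjusted p = 0.0547) and with library size alone (-0.08, adjusted p = 0.356). The 3 RPA genes had no call. *Rpa3* was at 68.3 and 70.0 CPM with nt-shRNA, 69.7, 69.0 and 58.6 CPM with shRNA1, and 57.4, 62.0 and 65.7 CPM with shRNA2. It had a log2 fold change of -0.16 under shRNA2 (adjusted p = 0.0864), and *Rpa1* and *Rpa2* had -0.03 and 0.12.

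Of the genes that supply deoxynucleotides, *Tyms*, the enzyme that makes thymidylate, showed the largest change of all 44 genes, a 2.30-fold higher level with shRNA2. *Tyms* (chr5:30058202-30073617, GRCm38) stood at 20.1 and 20.7 CPM with nt-shRNA, 26.1, 27.6 and 21.8 CPM with shRNA1, and 44.5, 55.6 and 40.4 CPM with shRNA2. The shRNA2 libraries lay far above the rest, replicate 2 highest, and the shRNA1 libraries lay between them and the controls without overlap. The log2 fold change was 1.20 under shRNA2 (SE 0.119, adjusted p = 9.23e-08, edgeR). With shRNA1 it was 0.30 (SE 0.121, adjusted p = 0.0672), which passed the threshold in 8 of 15 other settings of the analysis. Matches to a pseudogene, *Tyms-ps*, cover 34.5% of the coding transcript examined, so the level of *Tyms* is uncertain. That transcript has 447 bases and the counted exons 6089, so the share does not give the extent. The subunits of ribonucleotide reductase, which makes deoxynucleotides, had no call. *Rrm1* was at 190.1 and 198 CPM with nt-shRNA, 210.4, 195 and 186 CPM with shRNA1, and 207, 210.4 and 216 CPM with shRNA2. *Rrm2* had 264 and 276 CPM with nt-shRNA, 261, 243 and 248 CPM with shRNA1, and 249, 257 and 254 CPM with shRNA2. Copies, among them *Gm48455*, match 51.8% of the *Rrm2* transcript examined, which has 841 bases against 2771 counted, so its level is uncertain. With shRNA2, *Rrm1* was above both controls in every library (0.12, adjusted p = 0.105) and *Rrm2* below them (-0.09, adjusted p = 0.195).

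The direct test of shRNA2 against shRNA1 asked where the hairpins differ. Higher with shRNA2 were 7 members (*Orc1*, *Orc2*, *Cdt1*, *Mcm5*, *Rfc3*, *Fen1* and *Tyms*) and lower were 3 (*Mcm6*, *Prim2* and *Pold2*), 22.7% of the members. Over all genes, 16.9% were higher and 18.7% lower in this test (edgeR), 35.6% together. *Tyms* differed most, by 0.90 on the log2 scale (SE 0.104, adjusted p = 4.87e-06, edgeR). *Mcm5* came next at 0.44 (SE 0.0649, adjusted p = 4.87e-05, edgeR), followed by *Fen1* at 0.39 (adjusted p = 0.0153) and *Cdt1* at 0.34. Of the members lower with both hairpins, *Pold2* (-0.22, adjusted p = 0.00758) and *Mcm6* (-0.18, adjusted p = 0.0154) were lower with shRNA2 than with shRNA1. *Gins2* (-0.15, 95% interval -0.28 to -0.02), *Pold1* (-0.15, -0.31 to 0.00) and *Pola2* (-0.15, -0.28 to -0.01) had no call. In 15 other settings, *Gins2* passed the threshold in 5, and *Pold1* and *Pola2* in 2 each. Among the 34 members without a call, the 95% intervals reached from -0.31 (*Pold1*) to 0.32 (*Gins1*). No overlap between the hairpins was found for 17 members that were higher with shRNA2 and 7 that were lower, against 23.6% and 24.1% of all genes, 47.8% together.

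The calls for *Cdt1*, *Mcm5*, *Pold2* and *Tyms* held in all 15 other settings of the analysis. Leaving out shRNA2 replicate 2 left 3 higher members and 1 lower. The calls over all genes fell as well, from 16.9% to 11.5% higher and from 18.7% to 13.4% lower. The differences of *Rfc3* (0.19, adjusted p = 0.0676), *Fen1* (0.30, adjusted p = 0.0837), *Orc1* (0.17, adjusted p = 0.0702), *Orc2* (0.17, adjusted p = 0.0582), *Mcm6* (-0.17, adjusted p = 0.0537) and *Prim2* (-0.17, adjusted p = 0.0545) missed the threshold in this setting. Calls were also lost for *Mcm6* (adjusted p = 0.0771) and *Fen1* (0.0572) without shRNA1 replicate 1, for *Prim2* (0.0617) without shRNA1 replicate 2, for *Rfc3* (0.0578) without shRNA1 replicate 3, and for *Mcm6* (0.0765) without shRNA2 replicate 1. The difference of *Orc1* (adjusted p = 0.0295, edgeR) passed in 9 of the 15 settings and that of *Orc2* (adjusted p = 0.0463, edgeR) in 3.

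**Figure D4:**
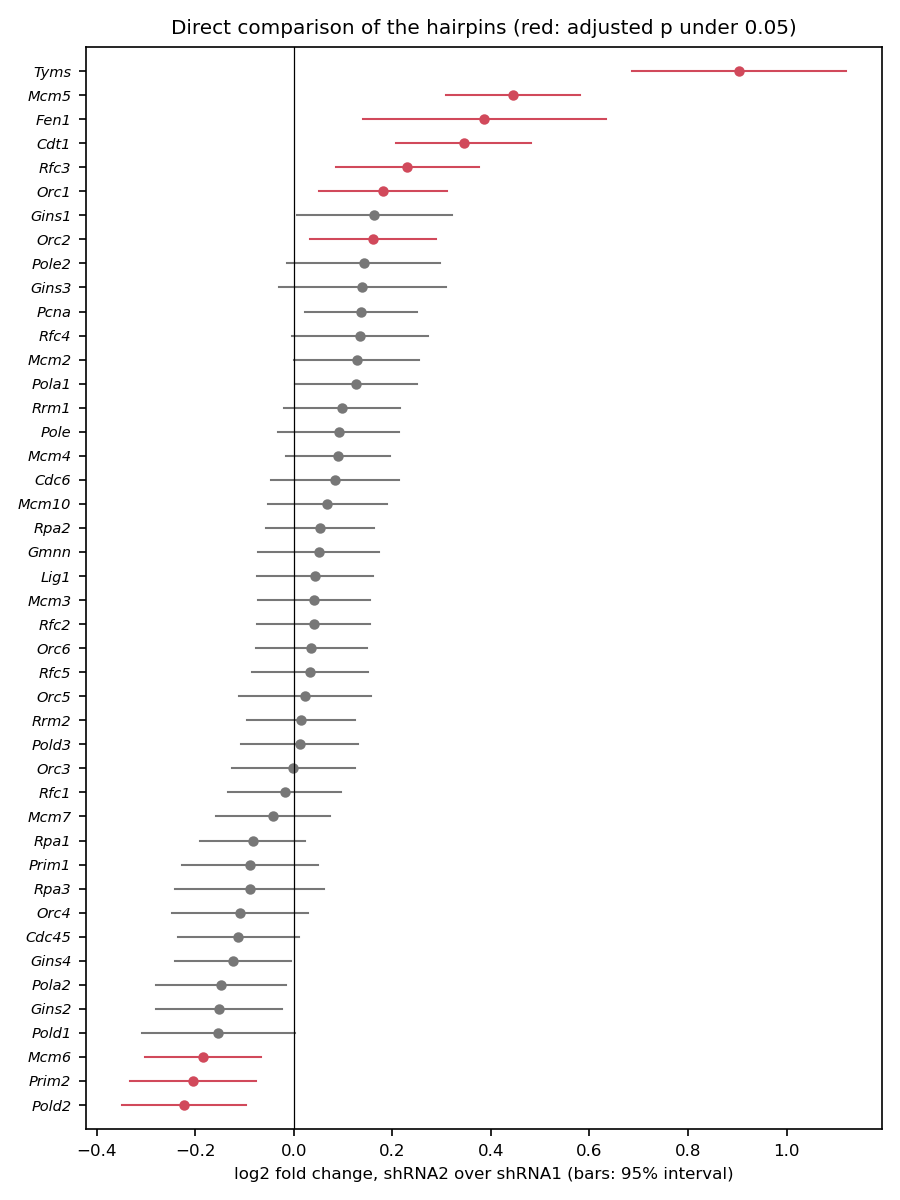
Log2 fold change of shRNA2 over shRNA1 for each of the 44 genes, ordered by value, with the 95% interval as a bar and an adjusted p-value under 0.05 in red. *Tyms* stands apart at 0.90, *Mcm5* lies at 0.44, and *Pold2* is lowest at -0.22.

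Ratios within a library show how subunits of 1 complex diverged. These pairs were chosen after their values were seen. The FPKM of *Mcm5* over that of *Mcm6* was 1.17 and 1.10 in the controls, 1.19, 1.33 and 1.36 with shRNA1, and 1.94, 2.29 and 1.78 with shRNA2. Every hairpin library lay above both controls in this ratio, which was not tested. *Pold2* over *Pold3* was 4.61 and 4.51 in the controls, 3.05, 3.04 and 3.53 with shRNA1, and 2.84, 2.76 and 2.59 with shRNA2. *Gins2* over *Gins1* was 1.33 and 1.42 in the controls, 0.790, 0.832 and 1.00 with shRNA1, and 0.702, 0.646 and 0.756 with shRNA2, subject to the overlap of *Gins2* with *Gse1*. *Rrm1* over *Rrm2* ranged from 0.180 to 0.213 over all 8 libraries, lowest in the controls.

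Genes of the wider replication pathway also moved in both directions. Of 63 other genes, listed by role, all passed the filter. With shRNA1, 6 were higher and 13 lower (9.5% and 20.6%, against 13.8% and 17.1% of all genes). With shRNA2, 12 were higher and 20 lower (19.0% and 31.7%, against 27.2% and 28.7%).

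*Pold4*, the smallest subunit of polymerase delta, had the largest change among them. *Pold4* was at 11.8 and 10.7 CPM with nt-shRNA, 6.95, 5.97 and 8.63 CPM with shRNA1, and 4.23, 3.83 and 4.36 CPM with shRNA2. Its 3 groups did not overlap, and the log2 fold change was -0.64 under shRNA1 (adjusted p = 0.00227, edgeR) and -1.45 under shRNA2 (adjusted p = 2.16e-07, edgeR). Thus *Pold1*, *Pold2* and *Pold4* were lower with both hairpins and *Pold3* had no call, a grouping across lists that was not tested as a set. Of all genes, 17.1% were lower with shRNA1 and 28.7% with shRNA2. *Top2a*, the topoisomerase that untangles replicated DNA, fell by less (-0.25 and -0.31). Among firing factors, *Ticrr*, which brings CDC45 to origins, rose with both hairpins (0.32 and 0.83, adjusted p = 1.65e-08 for shRNA2, edgeR), and *Recql4*, a helicase needed for initiation, rose with shRNA2 (0.71, adjusted p = 4.55e-06, edgeR). With shRNA1 *Recql4* was above the controls in all 3 libraries (0.25, adjusted p = 0.0592) and passed in 6 of 15 other settings. The origin kinase gene *Cdc7* fell with both (-0.31 and -0.46). *Timeless* and *Tipin*, the fork protection partners, rose slightly with shRNA2 (0.21 and 0.18).

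*E2f3*, 1 of the activating E2F factors, had 18.5 and 21.7 CPM with nt-shRNA, 30.7, 28.0 and 27.0 CPM with shRNA1, and 40.2, 46.5 and 36.6 CPM with shRNA2. It rose with both hairpins (0.50 and 1.03, adjusted p = 1.23e-07 for shRNA2, edgeR), and its groups did not overlap. *E2f1*, another activator, fell with both (-0.27 and -0.38). *Rbl1*, which encodes the pocket protein p107, fell with shRNA2 (-0.52, adjusted p = 8e-06, edgeR). In the E2F and pocket protein list as a whole, 5 of 13 genes were higher and 3 lower with shRNA2 (38.5% and 23.1%, against 27.2% and 28.7% of all genes). *Asf1a*, a histone chaperone, rose with shRNA2 (0.54), and *Uhrf1*, which maintains DNA methylation behind the fork, fell with both hairpins (-0.35 and -0.44). *Rrm2b*, the p53-inducible subunit of ribonucleotide reductase, fell with shRNA2 (-0.61, adjusted p = 7.32e-05, edgeR) and had 0.07 with shRNA1. *Dctpp1*, a dCTP pyrophosphatase (-0.28 and -0.35), *Cdk2*, the S-phase kinase (-0.22 and -0.33), and its activating phosphatase *Cdc25a* (-0.30 and -0.38) fell with both. In the S-phase control list, 1 of 8 genes was higher and 3 lower with shRNA1 (12.5% and 37.5%, against 13.8% and 17.1% of all genes). With shRNA2, 1 was higher and 2 lower (12.5% and 25.0%, against 27.2% and 28.7%). The higher gene was *Ccne2*, a cyclin partner of CDK2 (0.38, adjusted p = 0.0136, and 0.55, adjusted p = 0.00037, edgeR), and *Dtl* was also lower with shRNA1 (-0.20, adjusted p = 0.017). Of the 29 calls of these 18 genes against nt-shRNA, 20 held in all 15 other settings. Without nt-shRNA replicate 1, the shRNA1 calls of *Dctpp1* (adjusted p = 0.149), *Cdk2* (0.0838), *Cdc25a* (0.0556) and *Ccne2* (0.176) and the shRNA2 calls of *Timeless* (0.201) and *Tipin* (0.323) were lost. Without nt-shRNA replicate 2, the shRNA1 calls of *Top2a* (adjusted p = 0.103), *Cdk2* (0.0737), *E2f1* (0.121) and *Dtl* (0.257) were lost. With library size alone, those of *Top2a* (adjusted p = 0.124), *Dctpp1* (0.0671), *Cdk2* (0.213), *E2f1* (0.106) and *Dtl* (0.295) were lost. Others were lost without shRNA1 replicate 1 (*Ccne2*, adjusted p = 0.0643), shRNA1 replicate 2 (*E2f1*, 0.0548, and *Dtl*, 0.0709) or shRNA2 replicate 2 (*Timeless*, 0.074), and without a filter (*Tipin*, 0.0622).

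**Figure D5:**
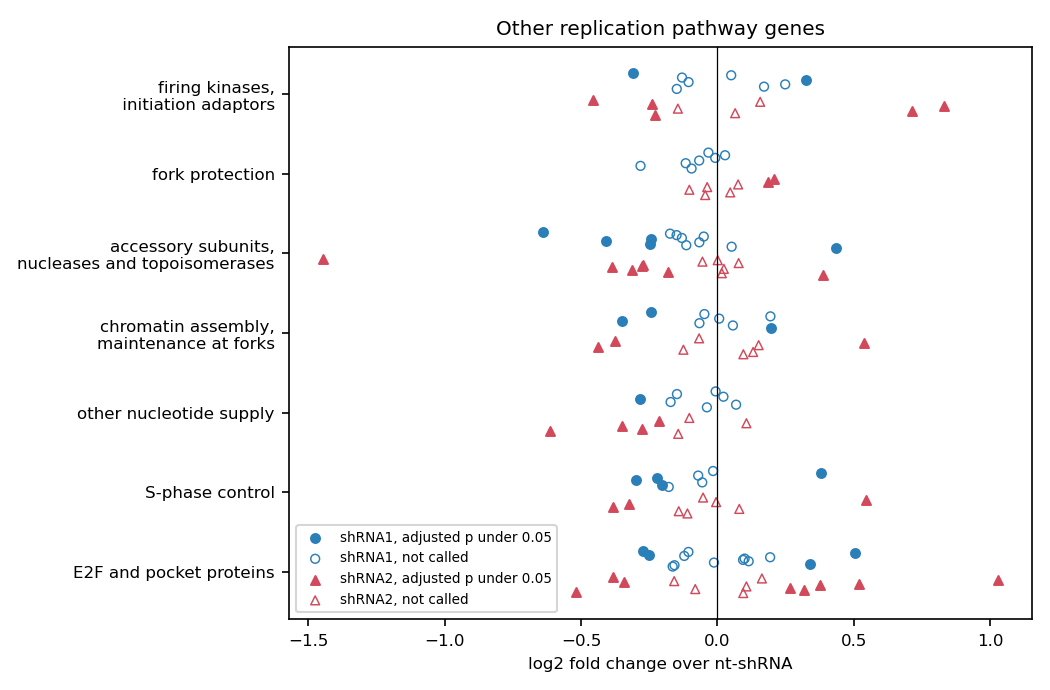
Log2 fold change over nt-shRNA of 63 other replication pathway genes in 7 lists, with shRNA1 as circles and shRNA2 as triangles, filled where the adjusted p-value is under 0.05. Filled points lie on both sides of 0 in most lists, with *Pold4* at -1.45 and *E2f3* at 1.03 the furthest points for shRNA2.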

How the data were processed

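The authors aligned 100 bp paired reads of poly(A) RNA to mouse GRCm38 (mm10) with STAR and deposited raw counts of fragments per gene, made with featureCounts 1.6.2 on the exons of GENCODE M24 without strand information. Fragments that aligned to more than 1 place, or that fell on more than 1 gene, were left out. All 8 deposited columns were used, and 0 were left out. Symbols were matched by Ensembl identifier for 55144 of 55385 genes. The members and lists were chosen with earlier results of these data known.

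The filterByExpr function of edgeR 4.0.16 (R 4.3.3, limma 3.58.1) kept 17445 genes at a minimum count of 10. These were scaled by TMM, fitted with glmQLFit and a coefficient per group (biological coefficient of variation 0.0638), and tested with glmQLFTest, with Benjamini-Hochberg adjustment over all genes. An adjusted p-value under 0.05 was called. The standard error came from the F statistic, and the 95% interval from it. Levels are TMM-normalized CPM, or FPKM by the deposited exon length. Values of every library are given for the members of each role with the smallest adjusted p-values in each comparison and the one furthest against its group, and 2 genes of each other list are described; other names were chosen after their values were seen. Alternatives were DESeq2 1.42.0, edgeR with the size factors of DESeq2 or with library size alone, 2 other filters, the replicate block, only the groups compared, and each library left out. On simulated counts, 198 of 200 genes changed by 1 on the log2 scale were recovered among 17053 (shRNA2 against nt-shRNA, 5.26% of calls false). The simulation gave every gene the same spread. Apart from *Tyms* with shRNA2, the changes of the members were smaller, so this recovery does not show how many of them would be found. Libraries of 1 group differed by more than sampling noise (chi-square per gene 3.14 to 12.2). The labels call them biological replicates without naming separate cultures, so p-values measure the spread between these samples. At these depths 3 counts correspond to 0.100 to 0.153 CPM. Copies were searched at 95% identity or more over at least 100 bases. The share given is that of the coding transcript of each gene with the largest share in copies, which can be shorter than the counted exons. Figures were drawn with matplotlib 3.10.9 (Python 3.11.15, pandas 2.3.3).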

Additional observations from a re-analysis of the deposited data

How the results depend on the processing

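Of the members called, 5 of 8 with shRNA1, 12 of 18 with shRNA2 and 4 of 10 between the hairpins were called in all 15 alternatives. Scaling by library size alone moved most values. It shifted the median of all genes to 0.107 with shRNA1 and 0.093 with shRNA2 and the share of higher calls with shRNA1 from 44.7% to 70.5%. The members' medians became 0.04 and 0.06, so that relative to all genes they remained below 0. With this scaling 8 members were higher for shRNA1, 14 higher for shRNA2 and 5 lower in the direct test. The shares of all genes were 23.5%, 33.5% and 20.3% in the same order. With shRNA1, 2 members instead of 1 were higher without a filter, with at least 10 counts in every library and with only the groups compared. Of all genes, 6.95%, 16.4% and 15.8% were higher in these settings. With the replicate number as a block, 2 were higher and 8 lower with shRNA1 (15.4% and 19.1% of all genes, against 13.8% and 17.1% without it), and *Tyms* passed (0.40, adjusted p = 0.00194, edgeR). Same-numbered libraries of shRNA1 and shRNA2 deviated together by correlations of 0.0223 to 0.0742, under 0.1, the limit used here for treating them as pairs. Between these groups each library but shRNA2 replicate 1 correlated best with its own number. That library had 0.0223 with its own number and 0.0277 with shRNA1 replicate 2, so a weak pairing remains possible. When 1 library at a time was left out, members higher with shRNA1 numbered 0 to 3 and those lower 5 to 10. Of all genes, 6.91% to 15.4% were then higher and 9.41% to 18.9% lower. In the direct test 3 to 6 members were higher and 1 to 5 lower, against 11.5% to 17.7% and 13.4% to 19.3% of all genes. The cause of these differences was not tested.

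A sign changed under at least 1 alternative for 21 members with shRNA1, 12 with shRNA2 and 5 in the direct test, none with a call. Of those whose library values are given in the text, the changes with library size alone were, for shRNA1, *Orc4* (0.09), *Cdc6* (0.04), *Gmnn* (0.03), *Mcm5* (0.02), *Rfc1* (0.01), *Rfc3* (0.09), *Rpa3* (0.04) and *Rrm2* (0.01), for shRNA2, *Gmnn* and *Pcna* (both 0.06), and for the direct test *Rrm2* (-0.01). With at least 10 counts in every library they were *Orc4* and *Rfc3* (both 0.01, shRNA1) and *Pcna* (0.00, shRNA2). Without a filter they were *Cdc6* and *Cdt1* (both -0.01, shRNA2) and *Rrm2* (0.00, direct test). With the replicate block they were *Rfc3* (0.01, shRNA1) and *Cdt1* (-0.01, shRNA2). Leaving out 1 library moved, with shRNA1, *Orc4* between -0.07 and 0.03, *Rfc3* between -0.09 and 0.05, *Rpa3* between -0.12 and 0.00 and *Rrm1* between -0.02 and 0.06, with shRNA2, *Cdc6* between -0.05 and 0.07, *Cdt1* between -0.05 and 0.05, *Gmnn* between -0.07 and 0.00 and *Pcna* between -0.06 and 0.01, and in the direct test *Rfc1* between -0.04 and 0.03 and *Rrm2* between -0.01 and 0.05. *Timeless* with shRNA1 had 0.08 with library size alone and lay between -0.08 and 0.02 when a library was left out, where *Tipin* lay between -0.04 and 0.10. Of the 1740 values under an alternative for 26 members, 18 other genes and *Eftud2*, 1584 kept their direction and side of the threshold.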
